A study of Homo sapiens with 2 samples.

Results

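The genes described here encode the protein subunits of the mitochondrial ribosome that carry the names MRPL, for the large subunit, or MRPS, for the small subunit. They were chosen by symbol, as every probe set annotated to exactly 1 symbol that begins with MRPL or MRPS and a number, without pseudogenes and antisense transcripts. This gave 140 probe sets of 75 genes, 48 MRPL and 27 MRPS, out of 19775 named genes on the arrays. RefSeq lists 77 such protein-coding genes, and the missing pair, MRPS24 and MRPL53, were measured only by probe sets that carry a further symbol. The array that holds miR-127-3p came from LN229 cells, an established human glioblastoma line, in which the plasmid pSUPER.neo-miR-127-3p drove the microRNA, and the control array from LN229 cells with pSUPER.neo alone. Whether the cultures were single clones is not given in the labels. Both cultures were grown in DMEM with serum, and each group has 1 array, so differences could not be set against a spread between cultures and no test was run. In such bulk RNA, fewer cells of a type and less RNA per cell cannot be told apart. The study asked which genes miR-127-3p regulates in a glioblastoma line.

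The mitochondrial ribosome translates the few messenger RNAs made from mitochondrial DNA, which encode membrane subunits of the respiratory chain and the ATP synthase. Its ribosomal RNAs come from mitochondrial DNA, but all of its proteins are encoded in the nucleus, made in the cytosol and imported. Many are homologues of bacterial ribosomal proteins and the others are particular to mitochondria. Promoters of nuclear genes for mitochondrial proteins often hold sites for NRF1, for the ETS factor GABP and for YY1, and MYC can also raise the transcription of such genes.

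The sequences of the overexpressed microRNA and of 3 promoters are shown as a description. Whether they bear on the ratios was not tested. The mature miR-127-3p is encoded at chr14:100883035-100883056 on the + strand (RefSeq, GRCh38.p14), and capitals mark its seed, bases 2 to 8.
hsa-miR-127-3p: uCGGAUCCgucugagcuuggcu

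The promoters are those of MRPS6, the gene with the lowest ratio, of MRPL41, the gene with the highest, and of MRPL38, which lay among the 10 lowest and holds motifs of both GABP and YY1. Each runs from 250 bases before to 50 bases after the RefSeq start (GRCh38.p14) and is written 5′ to 3′ on the gene's strand. MRPS6 is at chr21:34073328-34073627 on the + strand, MRPL41 at chr9:137551629-137551928 on the + strand and MRPL38 at chr17:75904835-75905134 on the - strand. Capitals mark matches on either strand to the letters GCATGCGC (NRF1), CCGGAAG (GABP), AAGATGGC (YY1) or CACGTG (the E-box bound by MYC).
MRPS6: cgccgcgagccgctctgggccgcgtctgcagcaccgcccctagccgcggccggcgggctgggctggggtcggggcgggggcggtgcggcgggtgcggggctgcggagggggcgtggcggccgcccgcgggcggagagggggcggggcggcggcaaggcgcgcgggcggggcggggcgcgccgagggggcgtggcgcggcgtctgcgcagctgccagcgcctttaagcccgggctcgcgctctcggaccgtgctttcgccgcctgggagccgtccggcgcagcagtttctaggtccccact
MRPL41: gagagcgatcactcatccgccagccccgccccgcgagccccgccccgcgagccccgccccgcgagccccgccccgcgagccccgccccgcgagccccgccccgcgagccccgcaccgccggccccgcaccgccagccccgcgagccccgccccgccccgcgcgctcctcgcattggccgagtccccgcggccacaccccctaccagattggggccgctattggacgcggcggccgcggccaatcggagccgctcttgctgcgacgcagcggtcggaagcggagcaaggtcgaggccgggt
MRPL38: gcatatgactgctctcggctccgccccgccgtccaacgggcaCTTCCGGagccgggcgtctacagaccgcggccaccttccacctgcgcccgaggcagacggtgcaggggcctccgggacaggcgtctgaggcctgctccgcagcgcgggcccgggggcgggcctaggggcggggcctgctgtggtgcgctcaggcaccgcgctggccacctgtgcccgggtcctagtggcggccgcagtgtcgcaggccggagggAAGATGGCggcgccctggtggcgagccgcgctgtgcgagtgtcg
The MRPS6 and MRPL41 windows held none of the 4 motifs. The MRPL38 window held 2 matches, a GABP motif on the opposite strand and, just after the start, a YY1 motif on the same strand.

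Signals are probe set intensities in arbitrary units. A log2 ratio is miR-127-3p minus control on the log2(signal + 1) scale with the median over all genes subtracted. Each gene is represented by its brightest probe set, and 11985 genes had a mean log2 value above the median of all probe sets, a signal of about 83.0. All 75 mitochondrial ribosomal protein genes passed that filter, and 71 gave a signal above 1000 on both arrays. The lowest signal of these brightest probe sets was 175, that of MRPL2 on the miR-127-3p array, above the median signals of 83.3 and 93.9 on the miR-127-3p and control arrays. Some second probe sets were dimmer, and their signals are given beside their ratios. Probe sets of a gene differed by a spread of 0.30 in log2 ratio per probe set (SD from the median absolute deviation, 5974 genes), or 0.31 for the 27 mitochondrial ribosomal protein genes for which several passed the filter. That spread holds no variation between cultures.

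The arrays as a whole were far apart, and they differed in cell type markers. Of 12 epithelial markers 10 were brighter in the control, where their signals summed to 86981 against 7923 with miR-127-3p. CDH1, KRT19 and EPCAM, at 775, 12674 and 9181 in the control, were under the median signal of the miR-127-3p array. These epithelial genes are not typical of a glioblastoma line, so the control array goes in part against its label, and whether both arrays hold RNA of the same line was not tested. Of 10 glial and glioma markers 8 were above the array median under miR-127-3p, as were 7 in the control, with summed signals of 63588 and 64029, most of it VIM at 48866 and 45584. SLC1A3, a glutamate transporter of astrocytes, gave 2689 with miR-127-3p against 73.9, while SOX2, with 1656 against 3893, and NES, with 893 against 1804, were over 2-fold lower. GFAP, the astrocyte intermediate filament, was below the median on both arrays, with 14.9 and 34.2. The summed signals of 8 mesenchymal markers were 83667 and 84280. All comparisons below run along the same pair of arrays, and the part of these marker differences in them was not tested.

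The mitochondrial ribosomal protein genes stayed close to their control levels. None of the 75 exceeded its control signal by 2-fold or more, where 5.06% of all genes did, and 1 of 75, MRPS6, lay 2-fold or more below it, where 8.67% did. At least 1.5-fold differences were found for 2 genes higher (2.67% of the 75, against 14.5% of all genes) and for 6 lower (8% against 18.1%). The other 67 genes, or 89.3%, lay within 1.5-fold, as did 67.4% of all genes. Ratios were above 0 for 38 and below 0 for 37, with a median of 0.03 and a middle 50% from -0.22 to 0.23. Over all genes the median is 0 by construction and the middle 50% ran from -0.41 to 0.37. Among the 9563 genes with a mean log2 signal inside the range of the mitochondrial ribosomal protein genes, 4.39% were past 2-fold higher and 6.21% past 2-fold lower, and 14% and 15.2% were past 1.5-fold. Pearson's correlation of log2 signals between the arrays was 0.93 over the 75 genes and 0.88 over all 11985, and genes are not independent replicates.

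**Figure D1:**
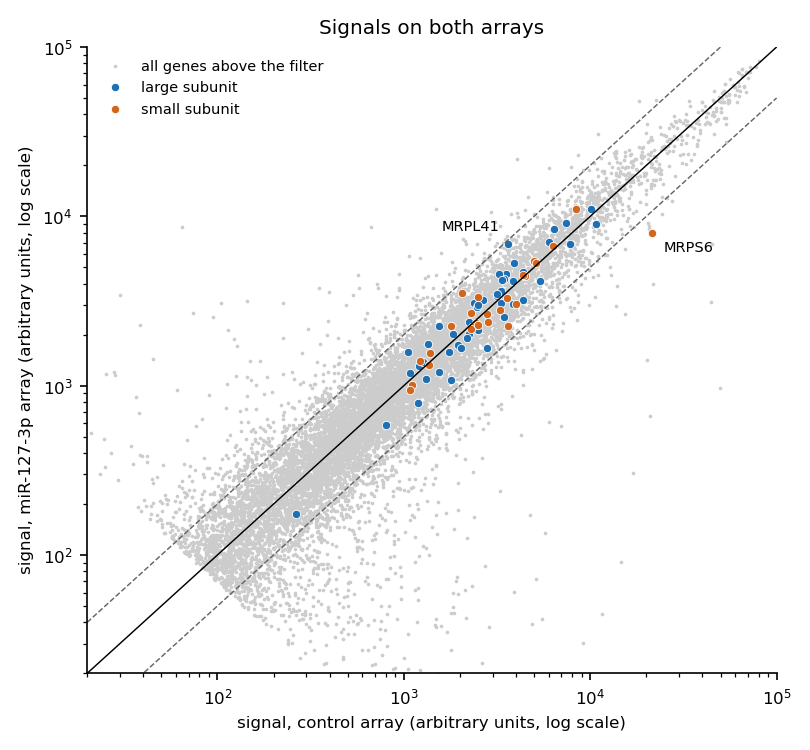
Signal of each gene on the control array (x axis) and on the miR-127-3p array (y axis), in arbitrary units on log scales. Grey points are all genes above the filter (genes below a signal of 20 on an array fall outside the axes), blue points large subunit genes and orange points small subunit genes, with the solid line at equal signals and dashed lines at 2-fold. The 75 genes lie between the dashed lines except MRPS6, whose signal was 7921 under miR-127-3p against 21321.

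Large and small subunit genes lay on both sides of 0. The 48 MRPL genes had a median of 0.10, with 27 above 0, and the 27 MRPS genes one of -0.05, with 11 above 0. Whether the medians differ was not tested. In the assembled ribosome MRPS30 and MRPS18A sit in the large subunit despite their names, and with these counted there the medians were 0.09 and -0.03. The 46 genes with a bacterial homologue had a median of -0.05, and the 29 without one had a median of 0.11.

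**Figure D2:**
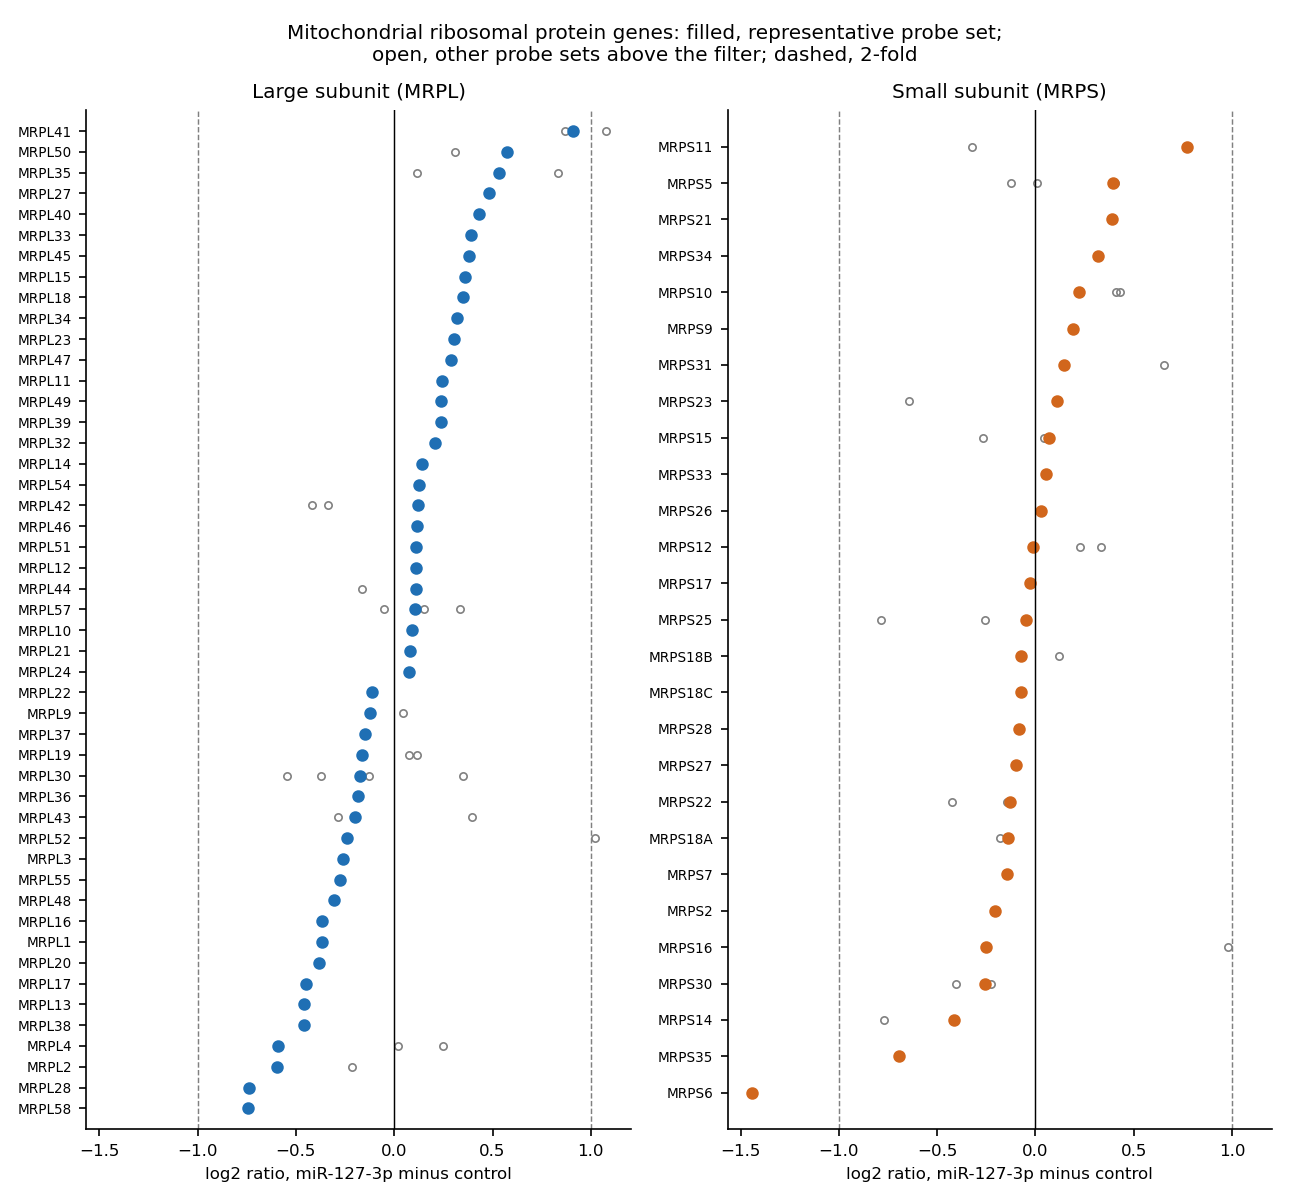
Log2 ratio (miR-127-3p minus control, x axis) of each mitochondrial ribosomal protein gene (rows), sorted within the large and the small subunit. Filled points are the brightest probe set of a gene, open points its other probe sets above the filter, and dashed lines mark 2-fold. MRPS6 alone lies past 2-fold with its filled point, and MRPL41 has the highest filled point, at 0.91.

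MRPS6, a small subunit protein with a bacterial homologue, was the gene farthest from its control level. Its only probe set gave 7921 under miR-127-3p against 21321, a log2 ratio of -1.44, which is 2.71-fold lower. This ratio was at percentile 4.65 of all genes. The MRPS6 gene on chromosome 21 overlaps SLC5A3, which encodes the sodium-coupled myo-inositol transporter that cells use to balance osmotic pressure. The 4 probe sets of SLC5A3 were all lower with miR-127-3p as well. Its brightest set gave 12806 against 25744, a log2 ratio of -1.02, and the next 10375 against 28284, a ratio of -1.46. The remaining sets gave 505 against 1748, at -1.80, and 116 against 513, at -2.15. Which of the overlapping transcripts each probe set reads was not tested. The other chromosome 21 gene of the mitochondrial ribosome, MRPL39, was at 0.24, and the 126 genes of that chromosome had a median of 0.05.

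**Figure D3:**
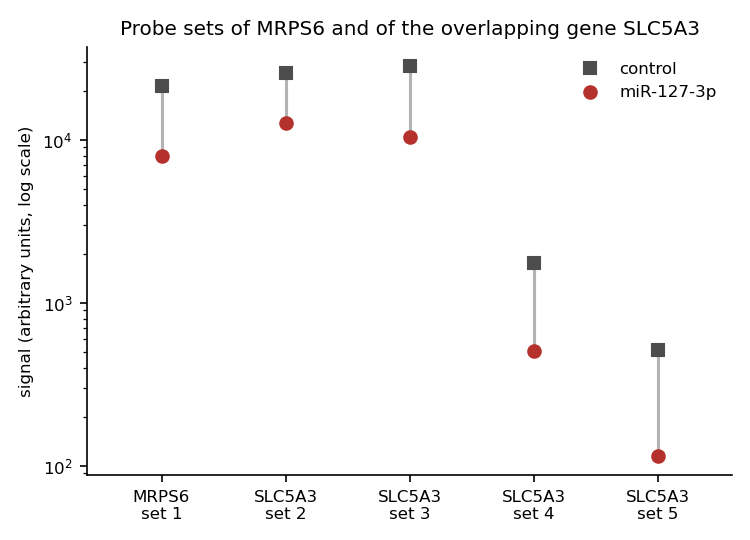
Signal (y axis, arbitrary units, log scale) of the MRPS6 probe set and the 4 SLC5A3 probe sets on the control array (squares) and the miR-127-3p array (circles). All 5 probe sets were dimmer with miR-127-3p, by ratios from -1.02 to -2.15 on the log2 scale.

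After MRPS6 came 5 genes past 1.5-fold. MRPL58, also called ICT1, a peptidyl-tRNA hydrolase built into the large subunit that frees stalled ribosomes, gave 1673 on the miR-127-3p array against 2779, a log2 ratio of -0.74. MRPL28, a large subunit protein, gave 1084 and 1792, a ratio of -0.74. MRPS35, a small subunit protein particular to mitochondria, gave 2246 and 3608, a ratio of -0.70. For these 3 genes a single probe set passed the filter. MRPL2, a homologue of a bacterial protein near the peptidyl transferase centre, gave 175 and 263, a ratio of -0.59, with -0.22 at its second probe set. MRPL4, which also has a bacterial homologue, was at -0.59 with 795 against 1188, but its other probe sets were at 0.02 and 0.25, on the opposite side of 0.

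The remaining genes among the 10 lowest were within 1.5-fold. MRPL38, a protein of the central protuberance, gave 585 against 799, a log2 ratio of -0.46. MRPL13, whose bacterial counterpart acts early in subunit assembly, gave 2528 against 3446, a ratio of -0.46, and MRPL17, a protein near the exit of the nascent chain tunnel, 3210 against 4345, a ratio of -0.45. MRPS14, a small subunit protein with a bacterial homologue, gave 3032 against 4008, a ratio of -0.41, and 234 against 397 at a dimmer probe set, a ratio of -0.77. Both probe sets of MRPS14 were thus brighter in the control.

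At the other end, MRPL41 was the highest. MRPL41, a large subunit protein particular to mitochondria, gave 6870 on the miR-127-3p array against 3627, a log2 ratio of 0.91, which is 1.88-fold higher. Its other 2 probe sets above the filter were at 0.87 and 1.08, the latter with a dim control signal of 67.6, so all 3 lay on the same side. All of them carry a suffix that marks a possible match to other transcripts. MRPS11, a small subunit protein with a bacterial homologue, was next, with 3524 against 2049 and a ratio of 0.77, while a dim probe set with 76.7 against 95.5 was at -0.32. These were the 2 genes past 1.5-fold in this direction.

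The rest of the 10 highest lay within 1.5-fold. MRPL50, a large subunit protein particular to mitochondria, gave 1587 against 1056, a log2 ratio of 0.58, with its other probe set above the filter at 0.31. MRPL35, a homologue of a bacterial protein of like name, gave 2253 against 1542, a ratio of 0.53, its 3 probe sets spanning 0.12 to 0.83. MRPL27, whose bacterial counterpart reaches toward the peptidyl transferase centre, gave 4547 against 3224, a ratio of 0.48. Both MRPL50 and MRPL35 had all their probe sets above the filter on the same side of 0. MRPL40, of the central protuberance, gave 5275 against 3880 (0.43). MRPS5, in the small subunit, gave 3324 against 2505 (0.40), with 4 probe sets from -0.12 to 0.40. MRPL33, a small protein with a bacterial homologue, gave 8447 against 6389 (0.39), MRPS21 11070 against 8382 (0.39), and MRPL45, which tethers the ribosome to the inner membrane at the tunnel exit, 1774 against 1351 (0.38).

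Probe sets of 1 gene did not always point the same way. Among the 27 genes for which several probe sets passed the filter, 11 had all on 1 side of 0 and 16 had them on both sides. The probe sets lay more than 1 log2 unit apart for 3 genes. MRPS16, a small subunit protein with a bacterial homologue, was at -0.25 at its brightest set, with 2781 against 3289, and at 0.98 at another, with 1096 against 550. MRPL52, a large subunit protein particular to mitochondria, was at -0.24 with 2136 against 2506 and at 1.02 at a dim set with 160 against 77.6. The last of the 3 was MRPS11, described above. For these genes the direction depends on the probe set. A further 18 probe sets lay below the filter and were not used.

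Genes whose proteins sit at the same place in the ribosome were also compared. MRPL10, MRPL11 and MRPL12 form the stalk that recruits translation factors and its base, and they were at 0.09, 0.24 and 0.11. All 3 were thus slightly above 0 and inside the probe set spread. Of 8 proteins around the tunnel exit, 6 were above 0 and 2 below, between -0.45 for MRPL17 and 0.38 for MRPL45. Of 6 proteins listed for the central protuberance, 4 were above 0 and 2 below, between -0.46 for MRPL38 and 0.48 for MRPL27. That list does not hold every protein of the place, and MRPL58, at -0.74, was not in it. The split and range hold for the listed genes only. The 3 human forms of the bacterial protein S18 were close together. MRPS18A gave 1011 against 1103 (-0.14), MRPS18B 2336 against 2435 (-0.07) and MRPS18C 2236 against 2333 (-0.07), though a second probe set of MRPS18B was at 0.12. The 50 genes not named by the rule lay between -0.38 and 0.36, 28 above 0 and 22 below.

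The genes that carry a second symbol on their probe set were kept apart. The probe set shared by MRPS24 and the readthrough gene URGCP-MRPS24 gave 21234 on the miR-127-3p array against 13316, a log2 ratio of 0.66. The one shared by MRPL53 and CCDC142 gave 7588 against 7382, a ratio of 0.03. The last one, annotated to MRPL51 and SPTLC1, was at -0.11, and MRPL51 at its own probe set was at 0.11.

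Other proteins of the mitochondrial ribosome and its membrane insertase had been listed as well. The list had 7 genes above the filter, among them MRPL58 and MRPL57, which belong to the 75 genes too, and 5 of the 7 were below 0, with a median of -0.21. None of the 7 was past 2-fold, where 5.06% of all genes were higher and 8.67% lower. CHCHD1, a small subunit protein, was at -0.68 with 3623 against 5744, PTCD3, which binds messenger RNA at the small subunit, at -0.21 and DAP3, a GTP-binding subunit, at -0.07. OXA1L, the inner membrane insertase that receives the nascent chains, was at -0.25, and GADD45GIP1, a large subunit protein, at 0.08.

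Factors that build the mitochondrial ribosome lay on both sides of 0, with an SD of 0.57 across genes beside 0.38 for the 75 ribosomal protein genes, a difference that was not tested. Among 25 measured assembly factors 2 lay 2-fold or more below the control and none above it, where 8.67% and 5.06% of all genes did. Their median was 0.23. NOA1, a GTPase needed for assembly, gave 1468 against 3334, a log2 ratio of -1.19. RPUSD4, a pseudouridine synthase, gave 701 against 1560, a ratio of -1.16, and DDX28, an RNA helicase, was at -0.94, with -1.37 at its other probe set. FASTKD2, an RNA-binding protein of the large subunit pathway, was at 0.85, with 1633 against 900 and 3 probe sets from 0.63 to 0.85. MRM2, which methylates the large ribosomal RNA, was at 0.56 and MTG1, a GTPase, at 0.53.

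None of 15 translation factors was past 2-fold, where 5.06% of all genes were higher and 8.67% lower by as much. Of the 15, 11 were above 0, with a median of 0.14. TSFM, the elongation factor Ts, gave 2433 against 1432, a log2 ratio of 0.75, MTRF1L, a release factor, was at 0.65 and TACO1, an activator of COX1 translation, at 0.64. GFM1, the elongation factor G, gave 1868 against 3253, a ratio of -0.81, its 4 probe sets spanning -0.81 to -0.22. LRPPRC, which stabilises mitochondrial messenger RNA, was at -0.67, with probe sets on both sides of 0, and MTRES1 at -0.36. TUFM, the elongation factor Tu that TSFM recharges, was at 0.07 with 7030 against 6622, and 0.64 at its other probe set.

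Of 18 mitochondrial tRNA synthetases and related genes, 1 was at least 2-fold lower and none higher, against 8.67% and 5.06% of all genes, and 12 were above 0. MARS2, for methionine, gave 118 against 250, a log2 ratio of -1.09, with GATC at -0.30 and SARS2 at -0.18. The other GATC probe set was at 0.44. LARS2, for leucine, was at 0.64, YARS2, for tyrosine, at 0.59 and HARS2, for histidine, at 0.57. The median was 0.12.

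Genes that copy and transcribe mitochondrial DNA had none of 12 past 2-fold, where 5.06% of all genes were higher and 8.67% lower. Past 1.5-fold, 3 of the 12 were lower and 1 was higher, beside 18.1% and 14.5% of all genes. TFAM, which packs mitochondrial DNA and starts its transcription, gave 2747 against 4866, a log2 ratio of -0.84, the 4 probe sets spanning -1.01 to -0.70. TWNK, the DNA helicase, was at -0.93 and TOP1MT, the topoisomerase, at -0.92. MTERF1 was at 0.82, TEFM, an elongation factor, at 0.55 with probe sets on both sides of 0, and SSBP1, the single-strand binding protein, at 0.37, likewise with sets on both sides. None of 12 RNA processing genes passed 2-fold either, and 2 were lower and 1 higher past 1.5-fold, with SUPV3L1, a helicase, at -0.87, MTPAP, the poly(A) polymerase, at -0.63 and TRMT10C at -0.20. TBRG4 was at 0.80, FASTK at 0.52 and FASTKD5 at 0.45.

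Of 25 import genes, 2 were at least 2-fold lower, where 8.67% of all genes were. These were the intermembrane space chaperones TIMM8B, at -1.03, and TIMM13, with 1570 against 3118. TOMM20, a receptor of the outer membrane, was at -0.53. PMPCB, a subunit of the presequence peptidase, was at 0.55, GRPEL1 at 0.44 and HSPA9, the matrix Hsp70, at 0.41. The 3 HSPA9 probe sets ran from -0.04 to 0.41. The median was 0.06, close to that of the mitochondrial ribosomal protein genes.

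Among regulators of mitochondrial genes 12 were measured, of which 3 lay 2-fold or more and 4 lay 1.5-fold or more below the control, beside 8.67% and 18.1% of all genes, and none was past 1.5-fold higher. Ratios were below 0 for 9 of the 12. MYC gave 578 against 6931, a log2 ratio of -3.59, from 1 probe set. PPRC1, a coactivator of the PGC-1 family, was at -0.86 with 485 against 873. ESRRG, a nuclear receptor, was at -1.02, with -0.29 at its other probe set. GABPB2, a GABP subunit, was counted among the 3 by its ratio of -1.07. It was dim with miR-127-3p, so it is only shown to be at least 1.84-fold lower. GABPA itself was at -0.02 at its brightest probe set and 0.81 at the other, GABPB1 at 0.03, YY1 at -0.07 and NRF1 at -0.20, with NRF1 probe sets on both sides of 0. ESRRA was at 0.40 and CREB1 at 0.30, with 7 CREB1 probe sets from -0.35 to 0.80. Of the factors whose motifs were searched in the promoters, MYC and the GABP subunit GABPB2 were thus lower, while GABPA, GABPB1, YY1 and NRF1 lay within 1.5-fold at their brightest probe sets.

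Set beside the neighbouring gene families, the mitochondrial ribosomal protein genes lay in between. Of 69 nuclear genes for oxidative phosphorylation, 55 were above 0, with a median of 0.23. None was past 2-fold, where 5.06% of all genes were higher and 8.67% lower. ATP5MC1 was at 0.88, COX5B at 0.81 and SDHD at -0.62. Of 57 cytosolic ribosomal protein genes 10 were above 0, with a median of -0.14. RPL35A was at -0.61 and RPL22 at -0.50, and RPS27L, a relative of RPS27 that p53 induces, was at 1.09. The mitochondrial ribosomal protein genes had 38 of 75 above 0, and the difference between the families was not tested. Closeness to the control was shared by these families. Within 1.5-fold lay 61 of 69 oxidative phosphorylation genes, 54 of 57 cytosolic ribosomal protein genes and 67 of the 75, beside 67.4% of all genes.

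**Figure D4:**
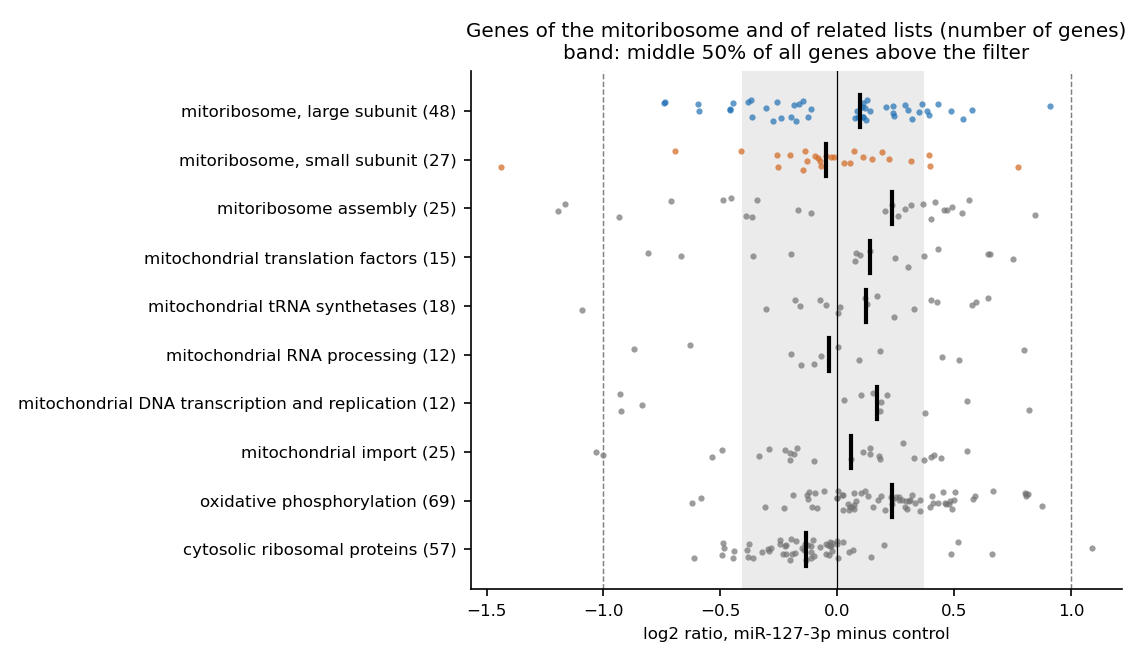
Log2 ratio (miR-127-3p minus control, x axis) of each gene (points) in the mitochondrial ribosome and related lists (rows, number of genes in brackets), with black bars at the medians, dashed lines at 2-fold and a grey band over the middle 50% of all genes. Medians were 0.10 for the large subunit, -0.05 for the small subunit, 0.23 for oxidative phosphorylation and -0.14 for cytosolic ribosomal proteins.

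Motifs of GABP and YY1 were more frequent in promoters of these genes than in those of all measured genes. Genes with and without each of the 4 motifs searched lay on both sides of 0. RefSeq promoter windows were found for 67 of the 75 genes, and 25 of these windows held none of the 4 motifs. The GABP motif CCGGAAG was in 41.8% of them, against 10.7% of 27305 promoter windows of all genes and 19.6% of the windows of measured genes. The YY1 motif AAGATGGC was in 28.4%, against 3.03% of all windows and 5.43% of those of measured genes. The NRF1 motif GCATGCGC was in 6 windows, or 8.96%, against 3.27% of all windows and 5.48% of those of measured genes. The E-box CACGTG was also in 6, or 8.96%, against 7.43% of all windows but 10.4% of those of measured genes. The NRF1 letters are a shorter core that replaced a longer form after the longer form's count, which was lower among the member windows, had been seen. The median ratio was -0.04 for the 28 genes with the GABP motif and 0.07 for the others, and it was -0.07 for the 19 with the YY1 motif and 0.04 for the others. Over all measured genes the order was the opposite. Medians there were 0.08 with the GABP motif and -0.01 without, and 0.05 with the YY1 motif and 0.01 without. These differences were not tested. The 6 genes with the NRF1 motif ran from -0.45 for MRPL17 to 0.21 for MRPL32. The 6 genes with an E-box ranged from -0.18 for MRPL36 to 0.38 for MRPL45, with a median of -0.09 beside 0.03 for those without. Whether the MYC ratio of -3.59 bears on any of them was not tested. A match in these windows is a description and not a site.

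Some of these genes start head to head with another gene, so that promoter sequence can be shared. A protein-coding gene on the opposite strand started within 1000 bases upstream for 20 of the 67 genes, and 18 such pairs were measured. Both genes lay on the same side of 0 in 8 of the 18 pairs, and Pearson's correlation over the pairs was -0.19. MRPL27 and EME1, a subunit of a structure-specific nuclease, start 45 bases apart and were at 0.48 and 0.49. MRPL49 and FAU, the gene of a cytosolic ribosomal protein, start 49 bases apart and were at 0.24 and -0.01. MRPL46 and MRPS11, a pair within the mitochondrial ribosome, start 320 bases apart and were at 0.12 and 0.77. Of the 18 neighbours 2, those of MRPL37 and MRPS2, were more than 2-fold higher, where 5.06% of all genes were. CYB5RL, beside MRPL37, gave 195 against a control signal under the array median, and PIERCE1, beside MRPS2, was at 1.02, while MRPL37 was at -0.15 and MRPS2 at -0.20.

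**Figure D5:**
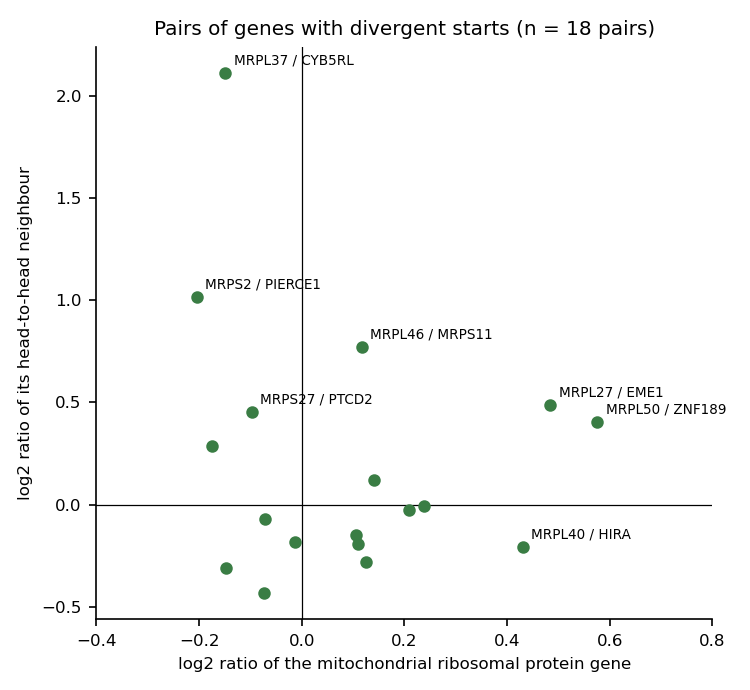
Log2 ratio of each mitochondrial ribosomal protein gene (x axis) and of its head-to-head neighbour (y axis) for 18 pairs, each point 1 pair, with names where either ratio is far from 0. Only 8 pairs lie on the same side of 0 on both axes, and the highest neighbour is CYB5RL beside MRPL37.

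Genes that overlap a mitochondrial ribosomal protein gene did not always share its ratio. Of 14 measured overlapping pairs, 3 overlapping genes were at least 2-fold lower, where 8.67% of all genes were, and only MRPS6 was so among their partners. These were SLC5A3, described above, SEMA4G, a semaphorin, at -1.49 beside MRPL43 at -0.20, and SSBP3 at -1.08 beside MRPL37 at -0.15. NDUFS6, a complex I subunit, was at 0.80 beside MRPL36 at -0.18.

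Position along the genome was also compared. The 4 genes on chromosome 5, MRPS30, MRPS27, MRPL22 and MRPL36, were all below 0, from -0.26 to -0.10, whereas the 574 genes measured on that chromosome had a median of 0.18. MRPL41 and MRPL50, both on chromosome 9, were among the 3 highest, and the 487 genes of chromosome 9 had a median of 0.27, while MRPS2 on the same chromosome was at -0.20. On chromosome 10, where all 453 genes had a median of -0.40, MRPS16 and MRPL43 were at -0.25 and -0.20. Chromosomes 1 and 17 held 8 of the genes each, with medians of -0.14 and 0.10 beside -0.10 and 0.02 for all their genes.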

How the data were processed

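Total RNA was labelled as biotin cRNA with an Affymetrix 3′ kit, per the labels' protocols, and signals come mainly from transcript 3′ ends. The authors deposited probe set intensity values on a linear scale for 54675 probe sets on 2 arrays. How probes were summarised and arrays scaled is not given in the sources used here. The median intensity was 83.3 under miR-127-3p against 93.9. Precision is limited by the number of arrays.

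The platform annotation paired 41091 probe sets with 1 symbol, and RefSeq gene identifiers (GRCh38.p14) matched 99.9% of these. Values became log2(signal + 1), and the median over genes, 0.01, was subtracted, so folds of dim genes are understated. Where a gene was below the array median on its dimmer array, a fold is a lower limit against that median. With 1 array per group, genes past a fixed fold were counted without a test. The procedure was run on simulated arrays with known changes, as a check of the code only. The simulation did not copy the spread of the real arrays. It therefore does not show how far the ratios here would repeat. Alternatives covered the filter, scaling, pseudocount, choice of probe set, dim signals, threshold and symbols. The genes and lists were chosen with earlier results of these data known. Named genes were those past 2-fold, the 10 highest and 10 lowest, those with probe sets over 1 log2 unit apart, the S18 forms, and up to 3 genes per direction of each list, plus MYC and PPRC1. Genes named for their place in the ribosome, their promoter, overlap or chromosome, and DAP3, PTCD3, GADD45GIP1, GABPA, GABPB1, YY1 and NRF1, were chosen after their values were seen. The classes by bacterial homologue and by place in the ribosome follow general knowledge. Python 3.11.15, numpy 2.4.6, pandas 2.3.3, statsmodels 0.14.6 and matplotlib 3.10.9 were used.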

Additional observations from a re-analysis of the deposited data

How the results depend on the processing

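The result that no gene was 2-fold higher held under all alternatives run, and MRPS6 stayed the lowest gene and past 2-fold under each of them. With a 3-fold threshold 0 genes were lower. The number at least 1.5-fold higher was 4 with the 75th percentile of each array as the scale, 1 with the mean of all probe sets and 1 when probe sets with a cross-match suffix were left out. It was 3 with no filter and with the values as deposited, in place of 2. The number at least 1.5-fold lower was 5, in place of 6, with the filter at the 75th percentile and with quantile normalization. It was also 5 with a smooth trend over signal (loess) removed and with the mean of all probe sets. It was 4 with no filter, with the values as deposited, with the 75th percentile as the scale, with pseudocounts of 16 and 32 and without suffixed probe sets. This last setting kept 39 of the 75 genes, 19 of them above 0. The median ratio of the genes ranged from -0.06 to 0.11, that of the large subunit from 0.04 to 0.18 and that of the small subunit from -0.09 to 0.03. Counting MRPS30 and MRPS18A with the large subunit was chosen after seeing the data. Of 314 values of named genes under the alternatives, 306 moved by less than the probe set spread and 7, of 5 genes (MRPL4, MRPL52, MRPS16, MRPS18B and MRPS18C), changed sign. Most alternatives kept the probe set and shifted these genes by small, similar amounts, so larger moves were hardly possible there. All moves past the spread came from averaging the probe sets or from leaving out suffixed ones. MRPS18B and MRPS18C were at 0.01 with the 75th percentile as the scale, and MRPL52 and MRPS16 at 0.39 and 0.36 with the mean of all probe sets. MRPL4, past 1.5-fold lower at -0.59, turned to 0.26 without suffixed probe sets. MRPS16 became the highest gene, at 0.99, without suffixed probe sets, where MRPL41 had none left. No paired analysis was possible because each group has 1 array. Probe set signals far above background do not remove the limit of 1 culture per group.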
